A study of Mus musculus with 6 samples.

Results

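Choroid plexus and ependymal transcripts were followed in tissue from around the blood clot of mice with an experimental intracerebral haemorrhage (bleeding into the brain). Of the 24459 genes counted, 10 were taken by their symbols: 5 of the choroid plexus epithelium (Ttr, Enpp2, Folr1, Clic6, Kl) and 5 of ciliated ependyma (Foxj1, Rsph1, Ccdc153, Dynlrb2, Tmem212), together with their 44 rows among 75457 isoforms. All 10 were found, and all 10 passed the filter on low counts. The mice had an intracerebral haemorrhage, are labelled WT under the tag for cell type, and received TEPP-46, a small-molecule activator of the M2 form of pyruvate kinase, or vehicle on consecutive days; perihematomal brain tissue was taken on day 5. Every animal in the series thus had a haemorrhage, the labels used here give no further strain, sex or age, and they do not state whether each group's 3 samples are 3 mice, so a p-value here weighs differences against sample-to-sample spread that may be technical. The 3 TEPP-46 libraries are named T1, T2 and T3 and the 3 vehicle libraries C1, C2 and C4, after the columns of the deposited count table, which held between 5286426 and 6025064 counts per library.

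The choroid plexus is a fringe of secretory epithelium that hangs in the brain's ventricles, makes most of the cerebrospinal fluid and is the main site of transthyretin synthesis in the brain. The ependyma is the sheet of multiciliated cells that lines the ventricle walls, and its beating cilia move that fluid. Both epithelia sit at the ventricle, apart from the grey and white matter of the brain.

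Choroid plexus transcripts differed more among the vehicle libraries than between the treatments. Ttr, which encodes the thyroid hormone and retinol carrier transthyretin, stood at 3151, 1778 and 3161 CPM (the count scaled by the library's total count) in TEPP-46 libraries T1, T2 and T3, against 4053, 0.526 and 13.6 CPM in vehicle libraries C1, C2 and C4. Vehicle library C1 was the highest of all 6, while C2 held 3 Ttr counts and C4 held 72, so that the vehicle group spanned a 7701-fold range and the TEPP-46 group a 1.78-fold range. The groups overlapped, and no member of either set passed an adjusted p of 0.05 in edgeR's quasi-likelihood test over all genes, a threshold that 0% of the 14441 genes tested passed. At an unadjusted p under 0.05, 3 of the 10 members were higher with TEPP-46 (Clic6, Ccdc153 and Dynlrb2) and none was lower, against 1.88% of all genes higher and 4.05% lower. With a replicate block by column number 1 of the 10 (Ccdc153) was higher at that level, against 2.65% of all genes, and the fitted value for Ttr was 3.73 on the log2 scale (SE 7.10). Fewer cells of a type and less RNA per cell cannot be told apart in such bulk tissue.

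**Figure D1:**
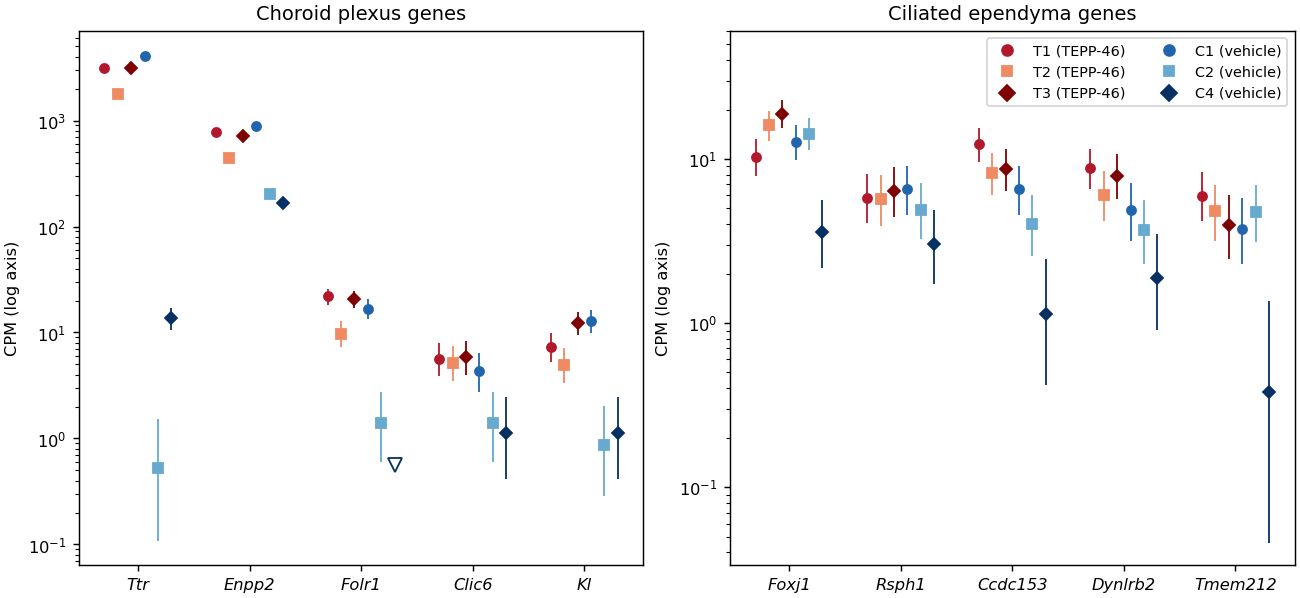
Level of each member in each library, in CPM on log axes, with exact Poisson 95% intervals (counting error only); within a gene the TEPP-46 libraries T1, T2 and T3 stand left of the vehicle libraries C1, C2 and C4. The open triangle marks 0 Folr1 counts in C4, drawn at the 3 counts that a count of 0 allows (0.567 CPM). C2 and C4 are the 2 lowest libraries for all 5 choroid plexus genes, and C4 is the lowest for all 5 ependymal genes.

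For Ttr, edgeR gave a log2 fold change of 0.99 (SE 2.51, adjusted p = 0.997), and its mean was 2697 ± 796 CPM with TEPP-46 and 1356 ± 2336 CPM with vehicle (SD, n = 3 each). The authors' deposited table lists a log2 fold change of 0.04 for Ttr (p = 0.670, DESeq2 by its header). Their values were smaller than those of edgeR for every member, for example 0.51 for Clic6. How theirs were computed is not given further, so the 2 may not be like measures. The value rested on C1: without that library the fitted change was 8.58, without C2 it was 0.41, and neither passed the adjusted threshold.

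Enpp2 encodes autotaxin, a secreted enzyme that makes lysophosphatidic acid and is made by choroid plexus epithelium and also by oligodendrocyte-lineage cells. It had 785, 439 and 714 CPM in T1, T2 and T3, against 880, 204 and 166 CPM in C1, C2 and C4. The order of the libraries followed that of Ttr except that C4 lay below C2 and T1 above T3. The floor differed: at its lowest Enpp2 kept 18.8% of its highest library, against 0.0130% for Ttr. The log2 fold change was 0.63 (SE 0.66, adjusted p = 0.985 by edgeR), and the groups overlapped. It was 1.79 without C1, 0.31 without C2 and 0.25 without C4.

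The balance of Enpp2 to Ttr counts was narrow in the 4 libraries rich in Ttr and different in the other 2. Enpp2 made up 19.95%, 19.8% and 18.4% of the Enpp2 and Ttr counts in T1, T2 and T3, against 17.8% in C1. In C2 it made up 99.7% (1161 of 1164 counts, exact binomial 95% interval 99.2 to 99.9%) and in C4 92.4% (875 of 947, 90.5 to 94.0%). Oligodendrocyte and myelin genes, summed over a list of 10, stood at 15503, 13302 and 14480 CPM in T1, T2 and T3, against 13774, 13558 and 5427 CPM in C1, C2 and C4. From C2 to C4 Enpp2 differed less than that sum did, and the part of either cell type in the Enpp2 level was not tested.

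Autotaxin is made in several spliced forms, and the exons that separate the annotated mouse transcripts most are shown because the isoform table counts those transcripts separately. In mammals the form with the first exon below is known as gamma and is the form described from brain, the form with the second as alpha, and the form with neither as beta. Both exons are read on the minus strand of GRCm38, from the GENCODE annotation of that build.
Exon 20 of 26 in Enpp2-202, coding, chr15:54851348-54851422, 75 bases: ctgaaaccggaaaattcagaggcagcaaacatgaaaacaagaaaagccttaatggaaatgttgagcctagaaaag
Exon 12 of 26 in Enpp2-203, coding, chr15:54877776-54877931, 156 bases: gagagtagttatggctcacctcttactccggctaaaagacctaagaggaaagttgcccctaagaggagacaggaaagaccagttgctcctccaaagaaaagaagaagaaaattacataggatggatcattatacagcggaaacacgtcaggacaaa
The first exon is absent from Enpp2-201, Enpp2-203 and Enpp2-204, and the second from Enpp2-201 and Enpp2-202. Both lengths are multiples of 3, so that either exon keeps the reading frame. A further difference is at the end of an exon that all 4 share, read on the same strand; the bases in capitals are in Enpp2-201, Enpp2-202 and Enpp2-203 and absent from Enpp2-204.
Exon 18 of 25 in Enpp2-201, coding, chr15:54862498-54862682, 185 bases: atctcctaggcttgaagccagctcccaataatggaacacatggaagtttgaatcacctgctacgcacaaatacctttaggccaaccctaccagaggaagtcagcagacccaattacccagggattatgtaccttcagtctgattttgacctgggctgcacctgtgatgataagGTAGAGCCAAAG

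Enpp2-201, with neither exon, took 17.5%, 18.02% and 17.3% of the gene's counts in T1, T2 and T3, against 17.9%, 16.5% and 19.4% in C1, C2 and C4. Enpp2-204, with the second exon, took 2.66%, 2.51% and 2.74% with TEPP-46, against 2.53%, 2.41% and 2.51% with vehicle. Enpp2-203, with the same exon and the 12 bases that Enpp2-204 lacks, took 0.444%, 0.364% and 0.422%, against 0.639%, 0.517% and 0.571%. The groups did not overlap for Enpp2-203, whose share was lower with TEPP-46 (exact permutation p = 0.1, two-sided, the smallest that 3 against 3 allows), on 46 counts with TEPP-46 and 41 with vehicle. It was the 1 such case among 16 member isoforms whose shares could be compared, with none higher, against 5.77% of all comparable isoforms lower and 6.19% higher. Of the isoforms with too few counts to be tested, Enpp2-205 (8 counts with TEPP-46, 15 with vehicle) and Enpp2-208 (7 and 13) had lower, non-overlapping shares with TEPP-46. Enpp2-208 had 0 counts in T2 and 1 in C4, and no share over all untested isoforms was computed to set beside these cases. Enpp2-202, with the first exon, took between 0.567% and 0.739% with TEPP-46 and between 0.457% and 1.11% with vehicle. Most Enpp2 counts, between 76.6% and 79.2% in each library, lay on 6 isoforms that the table lists as new, for which it gives no exons; whether they hold either exon was not analysed here.

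Among the new isoforms, the shares of ONT.4343.8, ONT.4343.1 and ONT.4343.2 moved with the gene's level. ONT.4343.8 took 14.3%, 11.9% and 15.1% of Enpp2 counts in T1, T2 and T3, against 14.5%, 10.2% and 8.46% in C1, C2 and C4. ONT.4343.1 moved less, at 23.5%, 22.9% and 23.8% with TEPP-46, against 23.7%, 21.7% and 21.6% with vehicle. ONT.4343.2 ran the other way, at 8.79%, 10.3% and 8.02% with TEPP-46, against 8.05%, 11.0% and 14.97% with vehicle. T2, C2 and C4, the 3 libraries with the least Enpp2, had the lowest shares of ONT.4343.8 and ONT.4343.1 and the highest of ONT.4343.2. The treatment groups overlapped for each of these isoforms. The pattern was noticed in these libraries and has no test. Tested for isoform usage over 7639 genes with diffSpliceDGE, of which 0.0131% passed, Enpp2 did not pass with its 10 tested isoforms (Simes p adjusted over all genes 1.00).

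**Figure D2:**
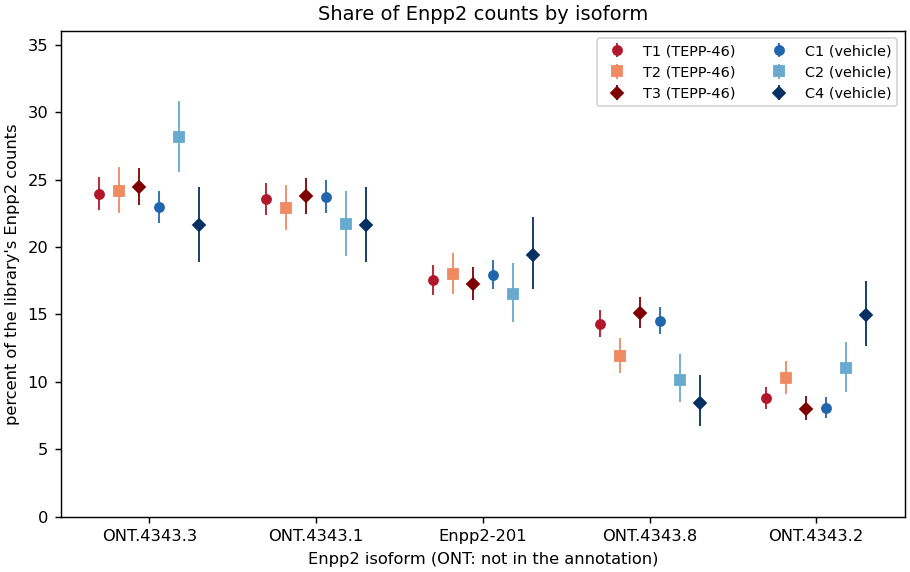
Share of each library's Enpp2 counts on the 5 isoforms with the largest shares, in percent, with exact binomial 95% intervals (counting error only); TEPP-46 libraries T1, T2 and T3 stand left of vehicle libraries C1, C2 and C4. The share of ONT.4343.8 is lowest in C4 (8.46%), and that of ONT.4343.2 is highest there (14.97%).

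The 3 choroid plexus members with lower counts followed the same libraries. Folr1, the folate receptor that carries folate across the plexus epithelium, had 21.9, 9.78 and 20.5 CPM in T1, T2 and T3, against 16.7, 1.40 and 0 CPM in C1, C2 and C4. C4 held 0 Folr1 counts, which allows a level of up to 0.567 CPM, and C2 held 8. Its log2 fold change was 1.53 (SE 1.14, adjusted p = 0.973 by edgeR) with overlapping groups, and 4.53 without C1.

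Kl, the gene of klotho, a co-receptor for fibroblast growth factor 23 that plexus epithelium and kidney make, had 7.30, 4.98 and 12.2 CPM in T1, T2 and T3, against 12.7, 0.877 and 1.13 CPM in C1, C2 and C4. C1 was the highest library and C2 and C4 the lowest, on 5 and 6 counts. Its log2 fold change was 0.73 (SE 0.90, adjusted p = 0.993 by edgeR), with 2.98 without C1, 0.23 without C2 and 0.27 without C4.

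Clic6, a member of the chloride intracellular channel family that plexus epithelium expresses, had 5.64, 5.16 and 5.84 CPM in T1, T2 and T3, against 4.31, 1.40 and 1.13 CPM in C1, C2 and C4. All 3 TEPP-46 libraries lay above all 3 vehicle libraries, though C1 reached 73.7% of the highest library. edgeR put its log2 fold change at 1.27 (SE 0.47, unadjusted p = 0.0230, adjusted p = 0.731 by edgeR) and the exact permutation p on CPM was 0.1. It ranged from 0.96 to 2.09 when each library was left out in turn.

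In T1, T2, T3 and C1, Folr1 made up 0.690%, 0.547%, 0.646% and 0.410% of Folr1 and Ttr counts. In C2 it was 8 of 11 counts (72.7%, exact binomial 95% interval 39.0 to 94.0%), and in C4 0 of 72, which allows up to 4.99%. Kl was 5 of the 8 Kl and Ttr counts in C2, while in T1, T2, T3 and C1 it made up between 0.231% and 0.386%. In C4, Kl and Clic6 were each 6 of 78 counts with Ttr (7.69%, 2.88 to 16.0%), while Clic6 made up between 0.106% and 0.289% in T1, T2, T3 and C1. The shares of Kl and Clic6 in C2 and C4, and of Folr1 in C2, lay above those of the other 4 libraries; that of Folr1 in C4 could not be told from them.

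**Figure D3:**
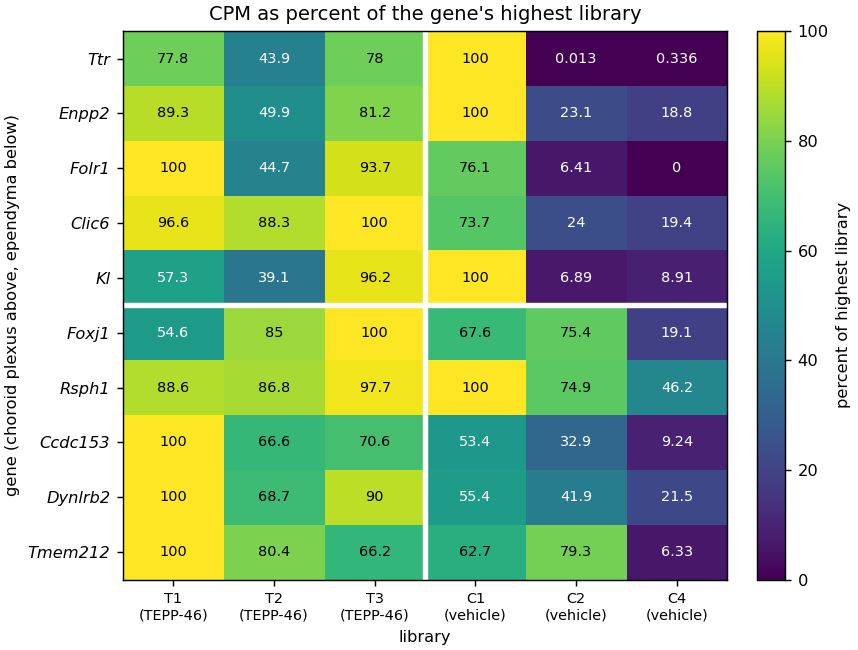
Each member's CPM as a percent of its highest library, with TEPP-46 libraries left of vehicle libraries and choroid plexus genes above ependymal genes. Ttr, Folr1 and Kl are under 10% of their highest library in C2 and C4; Enpp2 and Clic6 are at 23.1% and 24.0% in C2. The ependymal genes lie between 32.9% (Ccdc153) and 79.3% (Tmem212) in C2, and between 6.33% (Tmem212) and 46.2% (Rsph1) in C4.

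All 5 ependymal genes were lowest in C4, while C2 stood between 32.9% and 79.3% of the highest library. C2 was the next lowest library for 3 of the 5 (Rsph1, Ccdc153 and Dynlrb2). Foxj1, the forkhead factor that switches on the motile cilia programme, had 10.3, 16.0 and 18.8 CPM in T1, T2 and T3, against 12.7, 14.2 and 3.59 CPM in C1, C2 and C4. C2 lay inside the TEPP-46 range and C4 below all others. The log2 fold change was 0.54 (SE 0.45, adjusted p = 0.973 by edgeR), and 0.14 without C4. Its 2 isoforms, Foxj1-201 and a new one, split the counts almost evenly in every library, the new one taking between 50% and 54.4%.

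Rsph1, a protein of the radial spoke head in the ciliary axoneme, had 5.81, 5.69 and 6.41 CPM in T1, T2 and T3, against 6.55, 4.91 and 3.03 CPM in C1, C2 and C4. It varied least of the 10, its lowest library at 46.2% of its highest, with C1 highest and the 3 TEPP-46 libraries within a 1.13-fold range. The groups overlapped, and the log2 fold change was 0.29 (SE 0.32, adjusted p = 0.985 by edgeR), and 0.05 without C4.

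Dynlrb2, a light chain of the dynein motor, had 8.80, 6.05 and 7.91 CPM in T1, T2 and T3, against 4.87, 3.68 and 1.89 CPM in C1, C2 and C4. All TEPP-46 libraries lay above all vehicle libraries, C1 included. The log2 fold change was 1.11 (SE 0.36, unadjusted p = 0.0127, adjusted p = 0.657 by edgeR), the smallest p of the 10, and it stayed between 0.82 and 1.41 with each library left out in turn. Its isoforms Dynlrb2-201 and Dynlrb2-202 had log2 fold changes of 0.91 (SE 0.37) and 1.36 (SE 0.41), with adjusted p of 0.789 and 0.590 by edgeR over all isoforms.

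Ccdc153, a coiled-coil protein gene used as a marker of ependymal cells, had 12.3, 8.18 and 8.67 CPM in T1, T2 and T3, against 6.55, 4.03 and 1.13 CPM in C1, C2 and C4. The groups did not overlap here either. The log2 fold change was 1.30 (SE 0.48, unadjusted p = 0.0245, adjusted p = 0.739 by edgeR), ranging from 0.87 without C4 to 1.87 without C1. Its 2 tested isoforms differ in their last exon, shown here with the bases in capitals that Ccdc153-202 has and Ccdc153-201 lacks; it lies on the plus strand of GRCm38, and only its coding part is given.
Ccdc153-202, exon 7 of 7, coding part, chr9:44246736-44246882: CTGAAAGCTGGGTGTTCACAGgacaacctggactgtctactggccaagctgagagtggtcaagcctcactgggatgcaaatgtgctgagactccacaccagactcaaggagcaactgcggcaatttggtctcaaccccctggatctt
Ccdc153-201 had 81 counts with TEPP-46 and 37 with vehicle, and Ccdc153-202 had 51 and 25. Their log2 fold changes were 1.04 (SE 0.45, adjusted p = 0.826) and 0.94 (SE 0.47, adjusted p = 0.921), both by edgeR over all isoforms.

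Tmem212, a membrane protein gene used as an ependymal marker, had 5.98, 4.802 and 3.96 CPM in T1, T2 and T3, against 3.75, 4.74 and 0.378 CPM in C1, C2 and C4. C2 lay between T2 and T3, and C4 held 2 counts. Its change was 0.71 on the log2 scale (SE 0.60, adjusted p = 0.976 by edgeR), and 0.20 without C4.

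Counted over the list, 3 of the 10 members (Clic6, Ccdc153 and Dynlrb2) had TEPP-46 libraries that all lay above the vehicle libraries, and none had the reverse, against 5.67% and 5.76% of all genes. All 10 log2 fold changes were positive, against 51.1% of all genes. Their median was 0.99 for the choroid plexus members and 0.71 for the ependymal members, against 0.01 over all genes. Some lists of other genes, described below, were also all positive: oligodendrocytes (10 of 10 tested, median 0.37) and astrocytes (7 of 7, 0.10). So were the subventricular (6 of 6, 0.37) and thalamus (5 of 5, 0.43) lists. Positive in other lists were 7 of 8 striatal, 3 of 6 activated microglia, 1 of 5 cortical and 0 of 3 tanycyte genes. The members share their libraries, so that a single low library moves several at once. Without C1, 7 of the 10 had an unadjusted p under 0.05 (all 5 choroid plexus members, Ccdc153 and Dynlrb2), against 3.54% of all genes in that fit, and the medians were 2.98 for choroid plexus and 0.90 for ependyma; none of the 10 passed the adjusted threshold there (smallest adjusted p = 0.403 by edgeR). Without C2 the medians were 0.41 for choroid plexus and 1.16 for ependyma, and without C4 they were 0.41 and 0.20, and 2 of the 10 had an unadjusted p under 0.05 in each, Ccdc153 and Dynlrb2, against 4.51% and 1.59% of all genes.

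**Figure D4:**
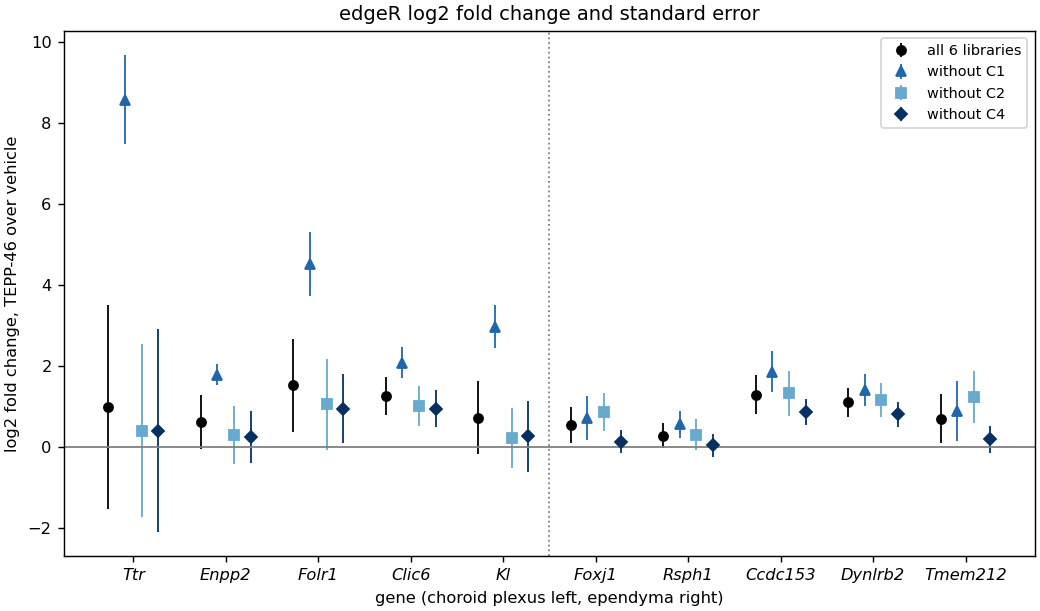
edgeR log2 fold change of each member, TEPP-46 over vehicle, with its standard error, from all 6 libraries and without each vehicle library. Without C1 the choroid plexus values move most, to 8.58 for Ttr; without C4 the ependymal values move towards 0, to 0.14 for Foxj1 and 0.05 for Rsph1.

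Set against each other as sums, the 2 epithelia parted in C2. The 5 ependymal genes together had 43.2, 40.7 and 45.8 CPM in T1, T2 and T3, against 34.5, 31.6 and 10.03 CPM in C1, C2 and C4. Folr1, Clic6 and Kl together had 34.9, 19.9 and 38.6 CPM with TEPP-46, against 33.7, 3.68 and 2.27 CPM with vehicle; Ttr and Enpp2 were left out of this sum after the data were seen, since they hold most of the counts. Ependymal counts made up 55.3%, 67.2% and 54.2% of the 2 sums in T1, T2 and T3, against 50.5%, 89.6% and 81.5% in C1, C2 and C4. C2 thus had an ependymal sum close to that of C1 and a choroid plexus sum near that of C4, and C4 was low in both. Gene by gene the parting was less clear, since C2 and C4 were the 2 lowest libraries for 3 of the 5 ependymal genes. Foxj1 held 81 of the 180 ependymal counts in C2. Without Foxj1 the ependymal sum was 32.9, 24.7 and 26.9 CPM with TEPP-46, against 21.7, 17.4 and 6.43 CPM with vehicle.

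**Figure D5:**
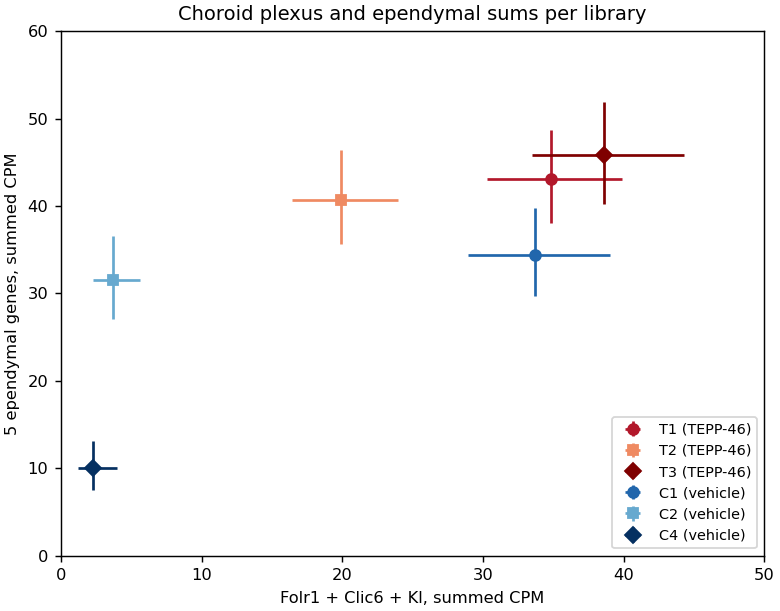
Summed CPM of the 5 ependymal genes against summed CPM of Folr1, Clic6 and Kl, 1 point per library, with exact Poisson 95% intervals (counting error only). C2 stands at 3.68 and 31.6 CPM, C4 at 2.27 and 10.03 CPM, and T1, T2, T3 and C1 at 19.9 CPM or more on the choroid plexus axis.

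Promoter windows are shown for Dynlrb2, the member with the smallest p, and Tmem212, whose level in C4 was 6.33% of its highest, as the windows with a match to any of the 3 motifs searched. RefSeq windows on GRCm38.p6, 250 bases before to 50 after the gene's start, were at hand for 4 of the 10 members (Kl, Ccdc153, Dynlrb2 and Tmem212). Both strands were searched for the forkhead core TGTTTA, the OTX2 core TAATCC, and the X-box consensus of RFX factors, which was set with the Dynlrb2 window in view. The consensus searched was GTNRCC then RGYAAC with a short gap allowed (N any base, R A or G, Y C or T). The form planned first, GTNNCC then GGNAAC, does not match the Dynlrb2 stretch in capitals. OTX2 is a regulator of choroid plexus, and RFX factors and FOXJ1 are regulators of cilia genes. Capitals mark the X-box match in Dynlrb2 and the forkhead match in Tmem212, each beginning 51 bases before the start.
Dynlrb2, chr8:116504765-116505064, plus strand: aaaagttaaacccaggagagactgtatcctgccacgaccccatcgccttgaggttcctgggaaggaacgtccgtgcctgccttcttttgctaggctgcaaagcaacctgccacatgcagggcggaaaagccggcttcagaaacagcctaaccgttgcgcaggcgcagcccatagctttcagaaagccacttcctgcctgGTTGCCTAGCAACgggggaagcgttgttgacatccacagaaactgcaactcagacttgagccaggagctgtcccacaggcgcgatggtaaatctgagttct
Tmem212, chr3:27896319-27896618, minus strand: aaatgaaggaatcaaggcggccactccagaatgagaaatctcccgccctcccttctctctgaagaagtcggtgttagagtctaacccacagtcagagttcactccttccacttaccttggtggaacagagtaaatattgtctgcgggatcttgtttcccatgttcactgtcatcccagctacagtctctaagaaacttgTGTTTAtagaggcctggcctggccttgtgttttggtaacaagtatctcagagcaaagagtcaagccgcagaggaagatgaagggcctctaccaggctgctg
The X-box consensus as searched occurs in 1.53% of the 32851 RefSeq windows of this length, the forkhead core in 13.4% and the OTX2 core in 7.06%. The X-box share is not independent of the Dynlrb2 match, with which in view the consensus was set. A match is a description of these windows and not a binding site.

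Other choroid plexus genes showed the same libraries apart. Of 25 further choroid plexus genes listed, 24 were in the table and 18 passed the filter on low counts; all 18 had positive log2 fold changes, with a median of 0.72, and none passed the adjusted threshold. Among the 22 with at least 30 counts, C2 and C4 were the 2 lowest libraries for 20. Tmem72, a membrane protein gene, had 28.7, 28.3 and 29.4 CPM in T1, T2 and T3, against 29.0, 24.0 and 20.1 CPM in C1, C2 and C4. Slc31a1, a copper transporter found in many tissues, had 22.4, 20.3 and 25.8 CPM, against 22.8, 22.3 and 14.8 CPM. Otx2 was the 1 gene of the 18 with an unadjusted p under 0.05, against 1.88% of all genes higher and 4.05% lower. It was also the 1 of the 18 whose TEPP-46 libraries all lay above the vehicle libraries, against 5.67% of all genes. Otx2 is named after its values were seen. It had 6.14, 3.74 and 5.46 CPM with TEPP-46, against 2.43, 0.175 and 0 CPM with vehicle (1 count in C2 and 0 in C4), and the groups did not overlap (log2 fold change 2.53, unadjusted p = 0.0142, adjusted p = 0.657 by edgeR).

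Other ependymal genes were more even. Of 31 further ependyma and motile cilia genes, 21 passed the filter. Of these, 17 had positive and 4 negative log2 fold changes, the median was 0.39, and none had an unadjusted p under 0.05. For 2 of the 21, Tppp3 among them, all TEPP-46 libraries lay above all vehicle libraries, and none had the reverse, against 5.67% and 5.76% of all genes. Rarres2, the gene of the secreted protein chemerin, had 40.7, 49.98 and 44.7 CPM in T1, T2 and T3, against 23.6, 44.6 and 13.1 CPM in C1, C2 and C4. Tppp3, a tubulin-binding protein gene, had 37.8, 34.3 and 39.6 CPM, against 32.4, 32.3 and 19.7 CPM. C2 and C4 were the 2 lowest libraries for 8 of the 25 genes with at least 30 counts, and C4 was the lowest for 14. Of 10 regulators of multiciliation, 3 passed the filter (median 0.22); Rfx4 had 11.0, 6.23 and 11.9 CPM in T1, T2 and T3, against 7.49, 7.37 and 9.84 CPM, and Rfx3 had 4.48, 4.802 and 6.78 CPM, against 7.12, 2.81 and 3.97 CPM.

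The genes whose pattern over the 6 libraries was closest to Ttr were looked for among 11246 genes with a mean of at least 5 CPM, by the root mean square difference of log2(CPM + 1) after centring each gene. The members themselves were left out of the ranking (Folr1 would stand at 3.03). The closest other gene was a new locus that the table ties to the gene 2900040C04Rik (2.97), followed by Kcne2 (3.09) and Kcnj13 (3.28), both potassium channel genes of plexus epithelium, with 1500015O10Rik (3.10) and Calml4 (3.20) between them; the median over all candidates was 4.48. The new locus had 9.29, 3.91 and 11.9 CPM in T1, T2 and T3, against 13.5 CPM in C1 and 0 counts in C2 and C4. Kcne2 likewise had 7.80, 3.74 and 9.61 CPM with TEPP-46, against 8.99 CPM in C1 and 0 counts in C2 and C4, where 3 counts would be 0.526 and 0.567 CPM. Kcne2, Kcnj13, Calml4 and 1500015O10Rik are also on the choroid plexus list above. The measure weighs the size of a change, so that the distances to Ttr, which spans the widest range, are large.

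For the mean pattern of the 5 ependymal members the closest genes included Mobp (0.0793), Tmem63a (0.125), Abca8a (0.128) and Peg10 (0.147), with a median over candidates of 0.636. Mobp encodes a myelin protein. Mobp had 674, 606 and 661 CPM in T1, T2 and T3, against 613, 523 and 210.4 CPM in C1, C2 and C4. Mbp, another myelin protein gene, had 10690, 8850 and 9681 CPM with TEPP-46, against 9304, 9121 and 3747 CPM with vehicle. All 10 oligodendrocyte genes were lowest in C4, the library in which all 5 ependymal members were lowest.

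Markers of neighbouring regions and cell types moved with single libraries too. The summed level of 6 thalamus genes was 214, 100 and 140 CPM in T1, T2 and T3, against 179, 66.1 and 35.2 CPM in C1, C2 and C4. C2 and C4 were lowest in this sum, as for choroid plexus, but gene by gene only for 3 of the 5 with at least 30 counts. Prkcd had 78.2, 40.7 and 54.1 CPM, against 81.3, 34.4 and 12.5 CPM. The sum of 8 striatal projection neuron genes was 1099, 1429 and 1228 CPM with TEPP-46, against 592, 1762 and 921 CPM with vehicle, and all 8 were lowest in C1, the library highest in Ttr. The sum of 5 cortical excitatory neuron genes was 409, 398 and 248 CPM with TEPP-46, against 461, 262 and 472 CPM with vehicle. That of 6 activated microglia and macrophage genes was 1727, 3859 and 5151 CPM, against 1230, 8389 and 694 CPM, and all 6 were highest in C2 and lowest in C4. The part of these tissues or of the dissection in the choroid plexus and ependymal levels was not tested.

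For the remaining lists the library pattern was not that of the choroid plexus. Of 11 genes of plexus stroma, meninges and fibroblasts, 10 were tested, 3 with positive and 7 with negative log2 fold changes (median -0.17), and C2 and C4 were the 2 lowest libraries for 0 of the 11. At an unadjusted p under 0.05, 3 of the 10 (Igfbp2, Dcn and Slc22a6) were lower and none was higher, against 4.05% and 1.88% of all genes. For 2 of the 10 the groups did not overlap, with TEPP-46 lower, against 5.76% of all genes. In that list Igfbp2, an insulin-like growth factor binding protein, had 8.80, 14.6 and 18.5 CPM in T1, T2 and T3, against 33.7, 23.0 and 34.0 CPM in C1, C2 and C4 (log2 fold change -1.13, SE 0.28, unadjusted p = 0.00287, adjusted p = 0.477 by edgeR), and Igf2 had 22.6, 33.1 and 28.3 CPM, against 48.7, 16.3 and 26.5 CPM. The 11 genes of the subventricular stem cell and neuroblast list summed to 35.9, 45.9 and 43.3 CPM with TEPP-46, against 34.6, 36.1 and 32.7 CPM with vehicle, with Dlx1 at 8.13, 9.60 and 9.42 CPM, against 7.87, 5.44 and 7.57 CPM. All 6 of these genes that were tested had positive log2 fold changes. For 2 of the 6, Dlx1 among them, all TEPP-46 libraries lay above all vehicle libraries, against 5.67% of all genes. The 7 astrocyte genes summed to between 3883 and 4196 CPM with TEPP-46 and between 3566 and 3736 CPM with vehicle, and the 6 tanycyte genes to between 57.9 and 83.1 CPM, against 62.8 and 96.0 CPM. Transthyretin is also made by liver; of 5 liver genes, Fgb and Serpina1a had 0 counts in every library, and the 5 summed to between 2.49 and 7.16 CPM with TEPP-46 and between 1.58 and 3.78 CPM with vehicle, with C2 lowest and T3 highest.

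At the isoform level the picture was the same. Of the 44 isoform rows, 36 had a count and 24 were tested; all 24 had positive log2 fold changes, against 51.2% of all isoforms, and none passed the adjusted threshold, as for 0% of the 33854 isoforms tested. An unadjusted p under 0.05 was reached by 4 of the 24 (Clic6-201, Dynlrb2-201, Dynlrb2-202 and Ccdc153-201), all higher with TEPP-46, against 1.88% of all isoforms higher and 3.9% lower. Ttr, Clic6, Kl, Rsph1 and Tmem212 each had their counts on 1 isoform. Folr1-204 and Folr1-205 had identical counts in each library, 41, 15 and 33 in T1, T2 and T3, against 29, 2 and 0 in C1, C2 and C4. Both have 765 coding bases, in transcripts of 1313 and 1286 bases, but so has Folr1-203, whose counts differed. Why the counts are identical was not analysed. They are not taken as 2 separate measurements, though both rows are among the 24 tested. Folr1, Foxj1, Ccdc153 and Dynlrb2 did not pass the usage test either.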

How the data were processed

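The authors deposited raw counts per gene and per isoform for 6 nanopore cDNA-PCR libraries of total RNA, per the file headers and the labels' protocols; the submitters' processing notes name GRCm38 and DESeq 1.10.1, the file headers name DESeq2, with the aligner and counter not given in the sources used here. Other values that the authors deposited, log2 fold changes and p-values, were used only where named as theirs. Columns were tied to groups by their letters (T for TEPP-46, C for vehicle), since the column numbers do not match those of the labels; 12 further per-library columns were not used.

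CPM was computed from the counts and the library totals. Genes and isoforms were tested in R 4.3.3 with edgeR 4.0.16 (filterByExpr, TMM, robust quasi-likelihood F test, group as the only term), with Benjamini-Hochberg adjustment over all features tested and calls under 0.05; isoform usage was tested with its diffSpliceDGE and Simes p-values. Standard errors were taken from the fold change and its F statistic. Alternatives were DESeq2 1.42.0, RLE scaling, library totals, no filter, a replicate block by column number, and each library left out. The scripts were tested on simulated data. Intervals (95%) are exact Poisson or binomial and cover counting error only; PCR copies are not independent molecules, and a count of 0 allows up to 3 counts. Exact permutation tests with 3 against 3 cannot go below 0.1.

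The members, the lists of other genes and the tests were chosen with earlier results of these data known. All 10 members are described, with genes among the 5 closest in pattern (1 item is not reported here); genes of the other lists are named from the 2 with the highest mean CPM in each, since none was called. The leave-one-out values of the summed levels, and the sum without Ttr and Enpp2, were added after seeing the data. Sequences are from the GENCODE annotation and the RefSeq promoter table, both on GRCm38 (p6 for RefSeq).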

Additional observations from a re-analysis of the deposited data

How the results depend on the processing

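No member was called in the 109 of 110 combinations of member and alternative that gave an adjusted p (DESeq2 gave none for Ttr), and their direction held in 109 of the 110; Foxj1 turned to -0.0672 with the replicate block. The count of genes called over the whole table was 0, with 88 by DESeq2 and between 0 and 43 with each library left out, 43 of them without C2. The count of isoforms called was 0, with 158 by DESeq2, 165 with no filter on low counts, 35 with the replicate block, and between 0 and 178 with each library left out (178 without C2, 1 without C1). For isoform usage 1 gene was called, against 0 with the replicate block and between 0 and 1 with each library left out. The log2 ratio of the summed choroid plexus level was 0.92, and between 0.38 and 4.12 with each library left out, 4.12 without C1; that of the ependymal sum was 0.77, and between 0.39 and 1.06.

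Of 264 combinations of tested isoform and alternative, 13 changed direction, and none of the 255 with an adjusted p was called; DESeq2 gave none for 9 isoforms. With the replicate block the log2 fold change was -0.0832 for ONT.2509.2, -0.0931 for Foxj1-201, -0.40 for Enpp2-202, -0.33 for Enpp2-203 and -0.0250 for Rsph1-201. With a library left out, Enpp2-202 ranged from -0.36 to 1.83 and Enpp2-203 from -0.31 to 1.36; both were below 0 without T1, T3, C2 or C4. The cause was not tested. The block joins columns of one number, which the labels do not tie to shared animals or days; same-numbered columns had correlations of deviations of 0.12 (T1 with C1) and 0.04 (T2 with C2), and T3 and C4 had no partner.

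Depth limits the members with few counts: in C4 Folr1 held 0 counts, and Clic6, Kl, Ccdc153, Dynlrb2 and Tmem212 held 2 to 10. In C2, Ttr held 3 counts, Kl 5, Folr1 8 and Clic6 8.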
